A study of Rattus norvegicus with 6 samples.

Results

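The small leucine-rich proteoglycans were followed across cultured rat adipose-derived stem cells (ADSCs) before and after adipogenic induction. The family was represented by 10 genes: Aspn, Dcn and Bgn of class I, Lum, Fmod, Prelp, Kera and Omd of class II, Ogn of class III, and Podn. They were found as the array features whose platform annotation gives exactly that symbol, and where a gene has several features the one with the highest mean over the 6 arrays is used. Each of 9 members had 1 such feature among 18166 genes, and Podn was not analysed here. Aspn was chosen by its measured difference between induced and control arrays, so its values are a description without a test. The other members were taken by family.

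ADSCs are stromal precursor cells of fat. These came from inguinal fat of female Wistar rats at 2 weeks of age, and each group had 3 one-colour Affymetrix arrays, labelled as biological replicates. Control cells grew in alpha-MEM with 10% fetal bovine serum. Induced cells spent 7 days in alpha-MEM with 20% fetal bovine serum, insulin at 5 µg/ml, the synthetic glucocorticoid dexamethasone at 1 µM and the phosphodiesterase inhibitor 3-isobutyl-1-methylxanthine at 0.5 mM. Serum thus differed between the groups as well as the inducers. The labels name no genetic change and give no culture time for the control cells. They also do not say whether the cultures of a group came from separate animals, so p-values measure the spread between these cultures, which may be partly technical. Values are log2 RMA signals, array medians lay between 5.64 and 5.73, and every difference is induced minus control. In a mixed culture, fewer cells of a type and less RNA per cell cannot be told apart.

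Small leucine-rich proteoglycans are secreted matrix proteins with a curved core of leucine-rich repeats, most of which carry chondroitin, dermatan or keratan sulfate chains. They bind collagen fibrils and set their diameter and spacing, and several also bind growth factors of the TGF-beta family. In fat they are products of stromal cells, and decorin and biglycan are among the abundant matrix genes of fibroblasts. The genes lie in small groups on the chromosomes: in the GRCr8 assembly Ogn, Omd and Aspn are consecutive coding genes on chromosome 17, Dcn, Lum, Kera and Epyc are consecutive on chromosome 7, and Optc, Prelp and Fmod on chromosome 13.

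Aspn, Omd and Ogn were also the members, together with Bgn, whose induced values all lay below the control values, as they did for 13.4% of genes. The 250 bases before the RefSeq start of each of these 3 neighbours are shown for that reason, 5′ to 3′ on the strand of the gene (GRCr8, RefSeq). They lie at chr17:15310470-15310719 for Aspn, chr17:15274871-15275120 for Omd and chr17:15258996-15259245 for Ogn, all on the minus strand. Capitals mark matches to any of 7 short motifs, searched on both strands.
Aspn: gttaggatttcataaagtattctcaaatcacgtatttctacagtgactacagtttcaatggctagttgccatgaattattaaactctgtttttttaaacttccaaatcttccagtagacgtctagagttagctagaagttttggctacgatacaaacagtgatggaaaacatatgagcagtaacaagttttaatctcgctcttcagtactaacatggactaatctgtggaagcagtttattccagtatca
Omd: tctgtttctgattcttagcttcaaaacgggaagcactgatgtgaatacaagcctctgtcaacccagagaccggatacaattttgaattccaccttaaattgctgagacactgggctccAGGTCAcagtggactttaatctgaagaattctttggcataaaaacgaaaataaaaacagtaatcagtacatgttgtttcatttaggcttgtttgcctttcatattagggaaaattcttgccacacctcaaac
Ogn: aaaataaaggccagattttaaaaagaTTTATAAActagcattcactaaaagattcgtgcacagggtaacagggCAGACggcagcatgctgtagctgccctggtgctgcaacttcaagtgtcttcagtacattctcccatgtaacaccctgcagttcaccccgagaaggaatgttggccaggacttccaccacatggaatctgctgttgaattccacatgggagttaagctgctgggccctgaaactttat

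The motifs were TATAAA (the TATA box), AGAACA (a glucocorticoid receptor half-site), TTGCNNAA (a C/EBP-like site), AGGTCA (a nuclear receptor half-site), CAGAC (a SMAD-binding element), TGANTCA (AP-1) and TGACGTCA (the cAMP response element). The Aspn window held none of the 7. The Omd window held 1 match to AGGTCA, a motif present in 14.1% of 33469 rat windows of this length. The Ogn window held TATAAA at overlapping places on both strands (12.9% of windows) and CAGAC, which is present in 42.9%. Those TATAAA matches lay far from the gene start, between 224 and 217 bases before it. AGAACA was found in 17.5% of all windows, TTGCNNAA in 9.22%, TGANTCA in 6.34% and TGACGTCA in 1.59%, and none of these 4 was in the 3 sequences. A match is a description of letters and not of a bound site. Windows were also at hand for Lum, Fmod, Kera and Podn, and among those 4 the Lum window held AGAACA once, as its reverse complement, and CAGAC at 3 places, while that of Fmod held CAGAC at 2 places and those of Kera and Podn held none of the 7.

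Aspn, which encodes asporin, a class I member that binds collagen and TGF-beta and is set apart by a run of acidic residues, had the largest difference. Its signal on replicates 1, 2 and 3 was 9.92, 8.76 and 11.18 in control cells, and 5.82, 4.93 and 5.91 in induced cells, an order kept for every gene here. The lowest control value lay 2.86 above the highest induced value. The means were 9.96 ± 1.21 and 5.55 ± 0.54 (SD, n = 3 arrays each), a difference of -4.40, or 21.1-fold. It was the most negative difference of all 18166 genes, which is the value it was chosen for. Induced levels lay close to or under the array medians, and RMA compresses dim signals, so the fold may be too small. It may also be too large, because the gene was chosen for the most extreme difference. The controls themselves were far apart: their range of 2.42 was reached by 0.44% of genes.

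Omd encodes osteomodulin, a keratan sulfate member known from bone and dentine. It read 6.87, 5.40 and 6.87 in control and 4.58, 4.73 and 5.26 in induced cells. All 3 induced values lay below the controls, by a gap of 0.14, and all were under the array medians, as was the 5.40 of control replicate 2. The difference was -1.52 (SE 0.42, 95% interval -2.53 to -0.51). It did not pass the test over all genes (limma adjusted p = 0.151, unadjusted p = 0.00945).

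Ogn encodes osteoglycin, also called mimecan, and was brightly measured in both groups. It read 11.08, 10.54 and 11.53 in control and 10.46, 10.17 and 10.27 in induced cells, again without overlap, with a gap of 0.08. The difference was -0.75 (SE 0.25, 95% interval -1.34 to -0.15, limma adjusted p = 0.208). In the control group, replicate 2 was the lowest for Aspn, Omd and Ogn alike and replicate 3 the highest, although for Omd replicates 1 and 3 both read 6.87. The order replicate 3, replicate 1, replicate 2 held for 14.3% of all genes, so it is not rare on these arrays. Mean levels of the 3 genes were 9.29, 8.23 and 9.86 in control and 6.95, 6.61 and 7.15 in induced cells.

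**Figure D1:**
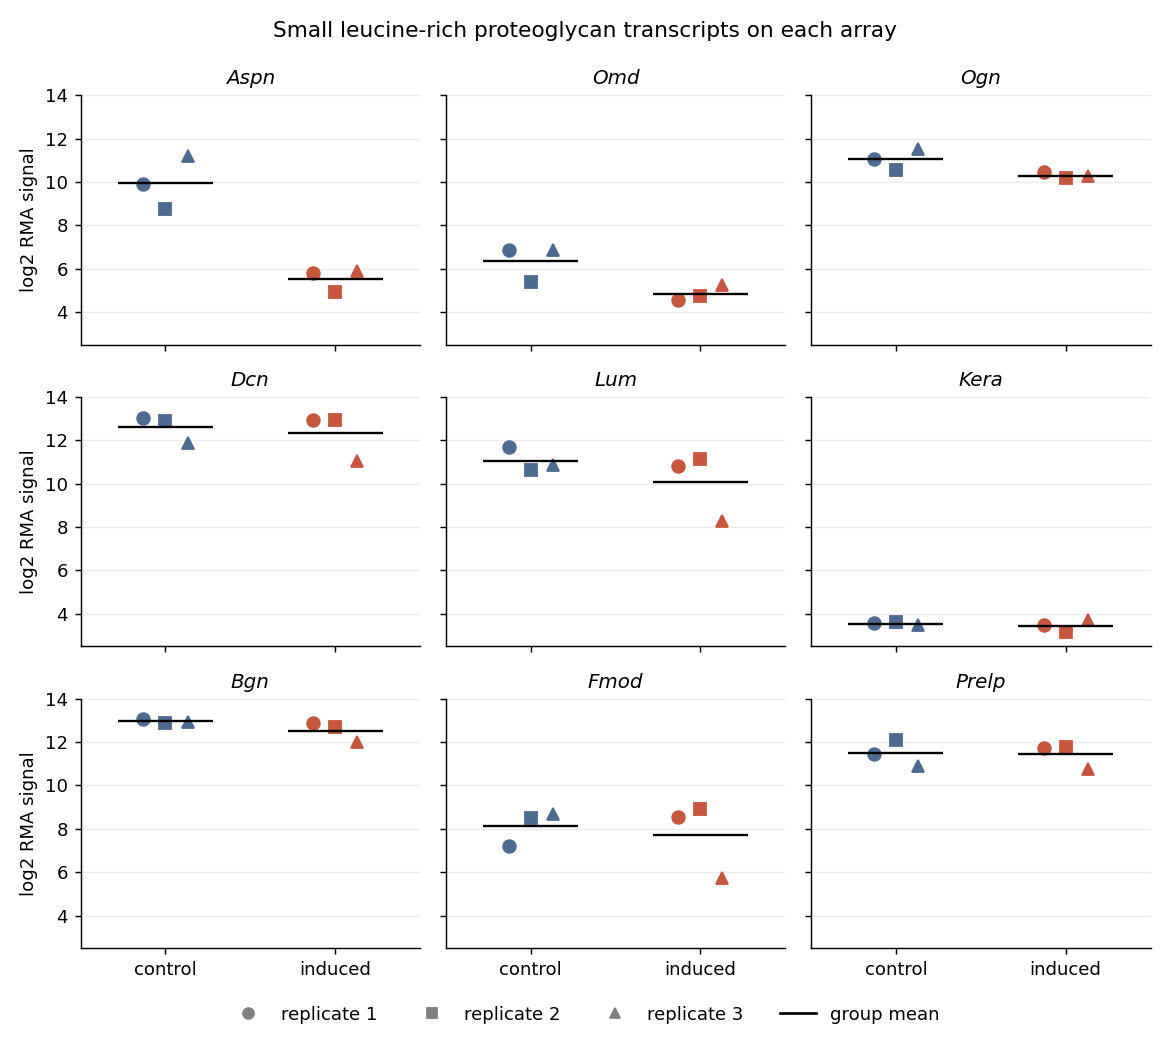
Log2 RMA signal (vertical axis, shared) of the 9 measured members on each array, with controls in blue, induced arrays in red, a marker shape for each replicate and a line at the group mean. Aspn separates by 2.86, Omd and Ogn by 0.14 and 0.08, and induced replicate 3 is the lowest array for Dcn, Lum, Bgn, Fmod and Prelp. Levels of different genes come from different probes and are not to be compared.

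The other genes of the neighbourhood were measured as a list. Of 6 genes that lie near this cluster in mammals, 0 passed with limma, against 0.749% of all genes. Before adjustment 1 had a p under 0.05, against 17.6% of all genes, and the median difference was -0.23. Cenpp, a centromere protein gene, stood at -0.73 (limma adjusted p = 0.199) and Iars1, an isoleucine tRNA ligase gene, at -0.26 (adjusted p = 0.495). In 2 of the 6, Cenpp and Fgd3, the induced values also all lay below the controls, by gaps of 0.01 and 0.11, against 13.4% of genes. Fgd3, outside the naming rule, stood at -0.24 (limma adjusted p = 0.298). Nol8, a nucleolar protein gene also outside the naming rule, read 8.22 to 8.29 in control and 8.18 to 8.29 in induced cells. Ecm2, the next family relative beside Aspn, was not analysed here.

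Dcn and Bgn, the other class I members, were among the brightest features. Dcn encodes decorin, which binds collagen and TGF-beta. It read 13.04, 12.89 and 11.89 in control and 12.93, 12.96 and 11.06 in induced cells, so that the groups overlapped and the replicate 3 array was the lowest in both. The difference was -0.29 (SE 0.57, 95% interval -1.65 to 1.07, limma adjusted p = 0.85), and it was 0.34 without induced replicate 3 (adjusted p = 0.678).

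Bgn encodes biglycan, which can also signal through Toll-like receptors. It read 13.05, 12.88 and 12.93 in control and 12.86, 12.70 and 12.01 in induced cells. The groups did not overlap, but the gap was 0.02 and the control range 0.17. The difference was -0.43 (SE 0.23, 95% interval -0.97 to 0.11, limma adjusted p = 0.39). Without induced replicate 3 it was -0.17 (adjusted p = 0.548).

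Among the class II members, Lum and Fmod had the widest spread within the induced group. Lum encodes lumican, a keratan sulfate member known for ordering the collagen of the cornea. It read 11.69, 10.64 and 10.88 in control and 10.82, 11.16 and 8.27 in induced cells. Induced replicates 1 and 2 lay within the control range, and induced replicate 3 stood at -2.72 relative to their mean. The difference of -0.98 (SE 0.76, 95% interval -2.79 to 0.82, limma adjusted p = 0.56) became -0.08 without that array (adjusted p = 0.938).

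Fmod encodes fibromodulin, which competes with lumican for collagen. It read 7.22, 8.51 and 8.70 in control and 8.53, 8.90 and 5.71 in induced cells, the highest and the lowest values both being induced. Its difference was -0.43 (SE 0.87, 95% interval -2.50 to 1.64, limma adjusted p = 0.853). Without induced replicate 3 the estimate changed sign, to 0.58 (adjusted p = 0.564), and it was 0.85 without both replicate 3 arrays (adjusted p = 0.339).

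Prelp encodes a protein that links basement membranes to the collagen beneath. It read 11.47, 12.09 and 10.89 in control and 11.74, 11.79 and 10.74 in induced cells, with replicate 3 the lowest in both groups. The difference was -0.05 (SE 0.39, 95% interval -0.98 to 0.88, limma adjusted p = 0.965), and it turned to 0.29 without induced replicate 3 (adjusted p = 0.725) and to 0.25 without control replicate 2 (adjusted p = 0.846). Kera, the gene of the corneal proteoglycan keratocan, read 3.48 to 3.61 in control and 3.18 to 3.70 in induced cells. These values are far under the array medians, and RMA gives no detection call. Its difference was -0.09 (SE 0.15, 95% interval -0.46 to 0.27, limma adjusted p = 0.819), turning to 0.05 without induced replicate 2 (adjusted p = 0.907).

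**Figure D2:**
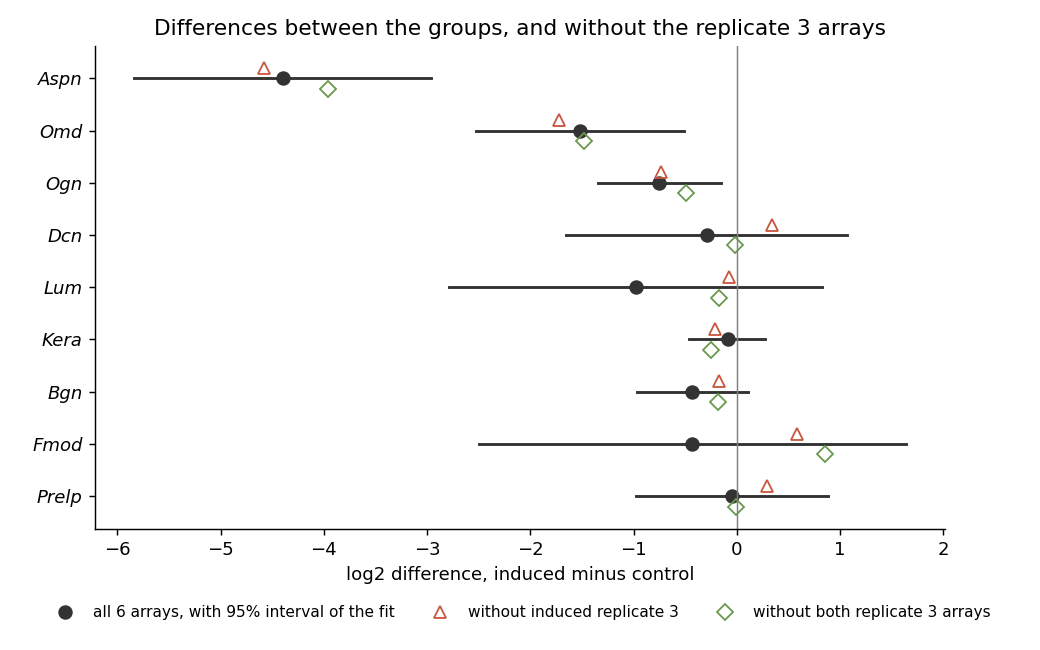
Log2 difference, induced minus control (horizontal axis), of the 9 members: filled circles with bars for all 6 arrays and the 95% interval of the fit, open triangles without induced replicate 3 and open diamonds without both replicate 3 arrays. The bar of Aspn is no test, as the gene was chosen by this difference, and its 95% level does not hold after that choice. Aspn, Omd, Ogn, Bgn, Lum and Kera stay below 0 in all 3 versions, Lum coming as near as -0.08 and Bgn -0.17, whereas Fmod moves from -0.43 to 0.58 and 0.85. For Aspn, Omd, Ogn and Bgn, whose groups did not overlap, leaving arrays out could not turn the sign.

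Of the 8 measured members other than Aspn, 0 passed over all genes with limma, where 0.749% of 18166 genes passed (0.479% higher and 0.27% lower). Before adjustment 2 of the 8 had a p under 0.05, Omd and Ogn, both with negative differences, where 9.51% of genes had such a p with a negative difference and 17.6% had one in either direction, the share to set beside the list counts that follow. All 9 members had a negative estimate, against 52.4% of all genes and 64.1% of the 1015 genes with a mean of at least 10. The median over the 9 was -0.43, against -0.01 over all genes. Without induced replicate 3, 6 of the 9 had a negative estimate, against 52.1% of genes, and Dcn, Fmod and Prelp had positive ones. In 4 of the 9, Aspn included, the 3 induced values all lay below the 3 control values, against the 13.4% given above. As the contrast chose Aspn, its share in these counts is no support for a direction of the family.

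The arrays on which members stood low were not the same for all. Aspn, Omd and Ogn were lower on every induced array than on any control array, although Omd and Ogn did not pass the test, and they had induced replicate 3 at 0.53, 0.61 and -0.04 relative to the mean of the other induced arrays. Dcn, Lum, Fmod, Prelp and Bgn instead stood lowest of all 6 arrays on induced replicate 3, by -1.88, -2.72, -3.01, -1.02 and -0.77 on the same scale. The lowest value lay on that array for 28.9% of all genes and for 51.2% of genes with a mean of at least 10. A drop there of at least 1 on the log2 scale was seen in 3.95% of all genes and 12% of those bright genes. On control replicate 3, Dcn stood at -1.08 and Prelp at -0.89 relative to the other controls, but Fmod at 0.84, Aspn at 1.84 and Lum at -0.29.

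**Figure D3:**
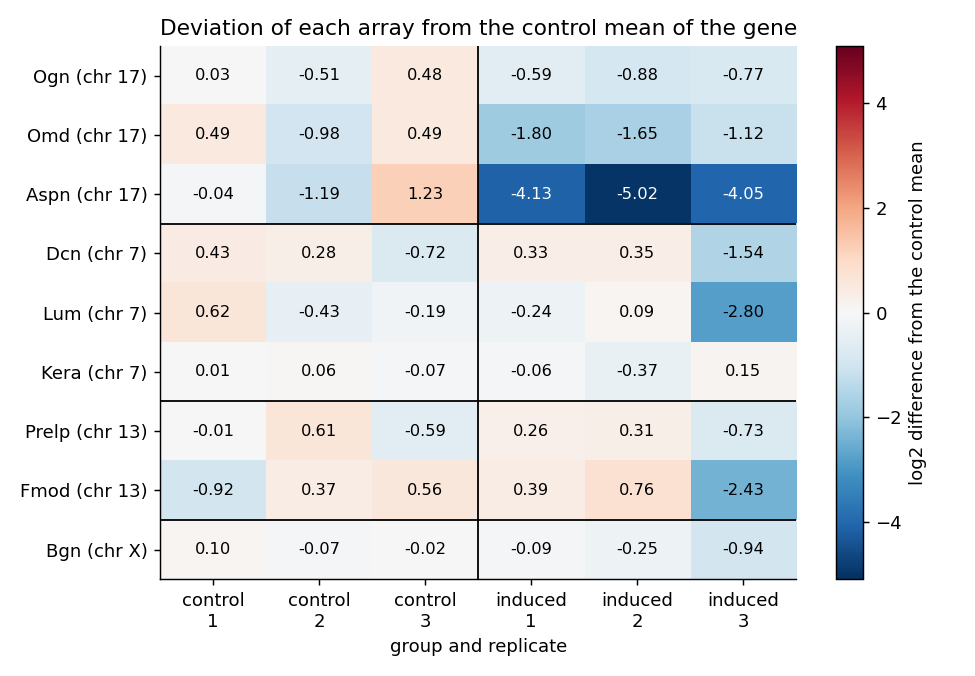
Log2 deviation of each array (columns) from the gene's control mean, for the 9 members (rows) in the order of their chromosomes, with blue below and red above 0. The chromosome 17 genes are lower on every induced array, with Aspn at -4.13, -5.02 and -4.05, while Lum at -2.80 and Fmod at -2.43 stand out on induced replicate 3.

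Induced replicate 3 stood apart from the other induced arrays over all genes (r = 0.9614 and 0.9612, against 0.9944 between induced replicates 1 and 2), and single arrays set how many genes passed. There were 136 genes in all, but 15 without control replicate 2, 20 without control replicate 3, 2 without induced replicate 1, 26 without induced replicate 2 and 557 without induced replicate 3. In none of these 5 fits, nor without control replicate 1, did any of the 8 members pass. Levels of cell type markers are given beside these values. Stromal and fibroblast markers had negative estimates in 10 of 10 genes, with list means of 9.70 to 9.82 in control and 8.52 to 9.29 in induced cells, the lowest on induced replicate 3, and mature adipocyte markers ran from 6.87 to 8.45 in control and from 10.63 to 11.60 in induced cells, the highest on induced replicate 3. Of the stromal genes 0 of 10 passed with limma (6 at an unadjusted p under 0.05, against 17.6% of all genes). Of the adipocyte genes 4 of 10 passed with limma as higher, against 0.479% of all genes, and all 10 had an unadjusted p under 0.05. Macrophage markers had means of 5.40 to 6.42 and 6.03 to 7.22, cartilage, tendon and bone markers of 5.86 to 6.16 and 5.59 to 5.71, mural markers of 6.05 to 6.61 and 6.11 to 6.28, endothelial markers of 5.15 to 5.21 and 4.90 to 5.08, and Schwann and epithelial markers of 4.82 to 4.89 and 4.74 to 4.90, with 0 genes of each passing with limma and 1, 3, 1, 0 and 0 of them, in that order, at an unadjusted p under 0.05. RMA signals have no zero, so no marker can be called absent. The part of these cell types in the proteoglycan values was not tested.

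The 5 genes most like Aspn over the 6 arrays, by Pearson's r among 2436 genes with an SD of at least 0.5, were Ccbe1 (r = 0.996), Syt17 (0.993), Thy1 (0.993), Susd2 (0.989) and Ncald (0.989). Most of such an r is the difference between the groups, which all 5 share. Ccbe1, which encodes a secreted collagen and EGF domain protein needed for lymphatic growth, read 8.25, 7.61 and 8.78 in control and 6.57, 6.00 and 6.35 in induced cells. Thy1, a surface glycoprotein used as a stromal cell marker, read 12.16, 11.84 and 12.33 against 11.11, 11.10 and 11.21. In both the order of the controls was that of Aspn, which the choice by r over these same arrays favours. The sizes of the differences were -1.91 and -0.97. Within the family r with Aspn was 0.934 for Ogn and 0.921 for Omd, and from -0.219 (Prelp) to 0.560 (Bgn) for the rest. No member had a positive difference, so the same was not done for one.

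Relatives outside the 10 genes gave 0 of 8 passing with limma (1 at an unadjusted p under 0.05) and a median of 0.00, with 4 estimates on each side of 0. Podnl1, a podocan-like class member, stood at -0.63 (limma adjusted p = 0.195) and Nyx, the nyctalopin gene of the retina, at 0.33 (adjusted p = 0.639). Epyc read 4.02 to 4.38 over all arrays and Optc 6.10 to 7.13 (both outside the naming rule). Among 19 proteoglycans with other cores 0 passed with limma (5 at an unadjusted p under 0.05), with a median of -0.15. Prg4, which encodes the joint lubricant lubricin, had the largest estimate at 3.48 (SE 0.55, limma adjusted p = 0.0544), from 8.69 ± 1.19 to 12.17 ± 0.22 (SD, n = 3). It passed under 5 of 14 alternatives: without control replicate 1 (adjusted p = 0.0356), without induced replicate 3 (0.0343), without both replicate 3 arrays (0.00569), with array weights (0.01) and with dim genes left out (0.0453). The fit over all features was not looked up for Prg4, nor for Col14a1, Met and Bmpr1b below. Ncan, the neurocan gene, stood at 2.28 (adjusted p = 0.185) and read 7.12, 6.99 and 9.70 in induced cells, where replicate 3 was the highest.

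The collagens that these proteoglycans bind gave 0 of 11 passing with limma (5 at an unadjusted p under 0.05, against 17.6% of all genes), with 8 negative estimates and a median of -0.59. Col14a1, a fibril-associated collagen that binds decorin, stood at -1.84 (SE 0.28, limma adjusted p = 0.0506), from 8.75, 8.54 and 9.55 in control to 7.13, 7.34 and 6.85 in induced cells. The groups did not overlap. It passed under 4 of 14 alternatives: without induced replicate 3 (adjusted p = 0.0351), without both replicate 3 arrays (0.00622), with array weights (0.0178) and with dim genes left out (0.0424). Col5a3 stood at 0.83 (adjusted p = 0.448). On induced replicate 3 lay the lowest value of 8 of the 11 collagens.

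No enzyme that builds the chains passed. Of 21 chondroitin and dermatan sulfate genes 0 passed with limma (6 at an unadjusted p under 0.05, against 17.6% of all genes), with 13 negative estimates and a median of -0.26. Chst15, a chondroitin sulfotransferase, stood at -1.67 (SE 0.29, limma adjusted p = 0.0683), with 8.32, 8.11 and 8.55 in control and 6.91, 7.07 and 5.99 in induced cells. Dsel, a dermatan sulfate epimerase-like gene, stood at -1.06 (adjusted p = 0.421), with 5.43 on induced replicate 3 and 7.57 and 7.87 on the others. Of 11 keratan sulfate genes 0 passed with limma (1 at an unadjusted p under 0.05), with a median of -0.25. St3gal1, a sialyltransferase, stood at 0.58 (adjusted p = 0.0935) and B3gnt2 at -0.53 (adjusted p = 0.285).

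Outside the marker lists, the listed genes that passed were Met and Bmpr1b. Of 12 receptor genes reported for secreted proteoglycans 1 passed with limma as higher, against 0.479% of all genes. This was Met, the hepatocyte growth factor receptor, which decorin can bind. It went from 6.71, 7.04 and 6.06 in control to 8.69, 8.54 and 8.67 in induced cells, a rise of 2.03 (SE 0.25, limma adjusted p = 0.0289). Met no longer passed when control replicate 1 (adjusted p = 0.0697), control replicate 2 (0.0541), induced replicate 1 (0.152) or induced replicate 2 (0.119) was left out, or with a replicate block (0.072). Before adjustment 5 of the 12 had a p under 0.05, against 17.6% of all genes. The list had 9 negative and 3 positive estimates and a median of -0.33.

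Of 18 TGF-beta and BMP genes 1 passed with limma as lower, against 0.27% of all genes. Before adjustment 7 had a p under 0.05, against 17.6% of all genes. There were 14 negative and 4 positive estimates, with a median of -0.33. The largest fall was that of Tgfbi, outside the naming rule, at -2.99 (limma adjusted p = 0.0963). The gene that passed was the BMP receptor Bmpr1b. It went from 8.07, 7.62 and 8.38 in control to 6.16, 6.44 and 5.66 in induced cells, a fall of 1.94 on the log2 scale (SE 0.26, limma adjusted p = 0.0368). Bmpr1b no longer passed when any 1 of the control arrays (adjusted p = 0.0964, 0.0801 and 0.113) or induced replicate 1 or 2 (0.16 and 0.104) was left out, or with a replicate block (0.105). Of 13 proteases reported to cleave these proteins 0 passed with limma (2 at an unadjusted p under 0.05), with 11 negative estimates and a median of -0.39. The metalloelastase gene Mmp12 had an estimate of -2.78 (adjusted p = 0.248), with 9.07, 8.59 and 4.81 in control cells and 4.60 to 4.77 in induced cells. Tll1, a procollagen protease gene, stood at -1.06 (adjusted p = 0.259).

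**Figure D4:**
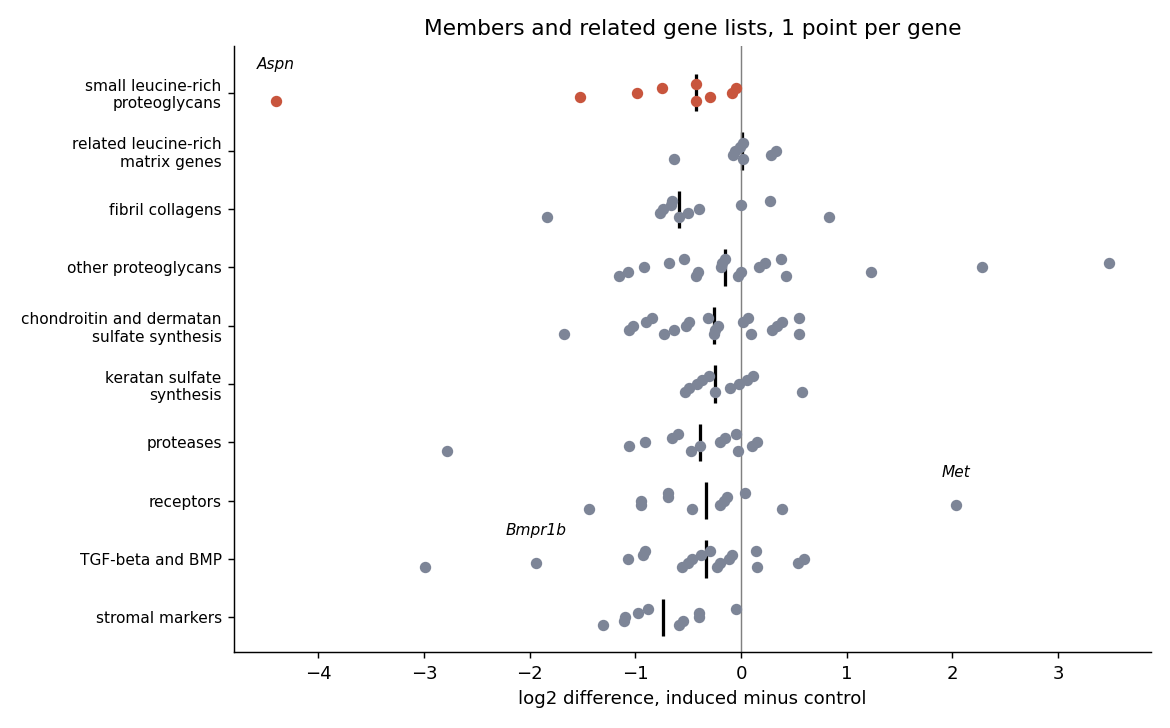
Log2 difference, induced minus control (horizontal axis), with 1 point per gene for the 9 members in red, the related lists and the stromal markers in grey, a black bar at each list's median, and names on Aspn and on list genes that passed the test. Aspn lies at -4.40, far left of the other members, and Met at 2.03 and Bmpr1b at -1.94 are the named list genes.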

How the data were processed

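RNA of 6 cultures (3 control, 3 induced), 6 µg each, was labelled and measured on one-colour Affymetrix arrays. The authors deposited log2 values from RMA (background correction, quantile normalization, probe summary), per the submitters' processing notes, version not given. The log2 scale was read from the values (no array exceeds 13.55). Quantile normalization hides changes of total RNA. There is no read depth on an array, and precision is limited by the number of arrays.

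The platform annotation gave 18511 of 36685 features 1 symbol, 575 several and 17599 none. The 1-symbol features were reduced to 18166 genes, taking the brightest feature for 291 genes with more than 1. The GRCr8 RefSeq table matched 18394 of these features by gene number and was used for names and gene order. Promoter sequences are RefSeq GRCr8 and matched 7 of the 10 members.

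The test was that of limma 3.58.1 (R 4.3.3, lmFit and eBayes, two-sided, 4 residual and 2.65 prior degrees of freedom), with Benjamini-Hochberg adjustment over all genes and a threshold of 0.05. The fit was tested on simulated data. An exact permutation test of 3 against 3 arrays cannot go below 0.1 and was not used. The members, the gene lists and the motifs were chosen with earlier results of these data known. Genes named from a list are up to 4 that passed with the largest change, and otherwise the 2 of largest change. Alternatives were each array left out, both replicate 3 arrays left out, a replicate block, array weights, an intensity trend, mean features, all features, a filter on means under 6, and other scalings. For list genes the fit over all features was not looked up.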

Additional observations from a re-analysis of the deposited data

How the results depend on the processing

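The count of 0 passing members other than Aspn held under all 15 alternatives, in which adjusted p-values ran down to 0.0723 (Omd without control replicate 2). Aspn ran from -5.00 to -3.79, Omd from -2.01 to -1.28, Ogn from -1.0 to -0.49, Bgn from -0.59 to -0.17 and Lum from -1.52 to -0.08, all negative throughout, over 15 alternatives (14 for Omd, which the filter on means under 6 removed, as it did Kera). The groups of Aspn, Omd, Ogn and Bgn did not overlap, so leaving arrays out could not turn their sign. With 1 array left out, Dcn ran from -0.65 to 0.34, Fmod from -1.02 to 0.58, Prelp from -0.35 to 0.29 and Kera from -0.21 to 0.05. Signs turned for Dcn with array weights (0.14) and without induced replicate 3 (0.34), for Fmod with array weights (0.18), without induced replicate 3 (0.58) and without both replicate 3 arrays (0.85), for Prelp with array weights (0.05), without induced replicate 3 (0.29) and without control replicate 2 (0.25), and for Kera without induced replicate 2 (0.05). None of these values passed the test. The count of passing genes moved most: 136 became 2 to 557 with 1 array left out, 740 without both replicate 3 arrays, 929 with array weights, and 69 over all features, where more rows are tested. With the replicate number as a block it was 12, with 2 fewer residual degrees of freedom, and the block changed no call for a member but ended those of Met (adjusted p = 0.072) and Bmpr1b (0.105). Deviations of same-numbered arrays from their group means correlated at 0.0227, 0.1204 and 0.1542. Induced replicates 2 and 3 correlated best with the control of their own number, but induced replicate 1 with control replicate 2 (0.1228). The numbers were not taken as pairs, although deviations within 3 arrays are tied to each other, so these correlations cannot decide the pairing. Of passing genes 64% were higher, against 51% with array weights, 82.6% over all features and 91.7% with the block. The cause of these shifts in count and share was not tested. Dim signals limit what can be said of Kera, of Omd in induced cells and on control replicate 2, and of Aspn in induced cells.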
